A study of Homo sapiens with 7 samples.

Results

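ATF4 regions between genes are stretches of DNA that ATF4 peaks marked repeatedly and whose centre lay outside every protein-coding gene. They were found by merging the peaks of the 4 ATF4 lists that overlapped by at least 1 bp, keeping regions with a peak in at least 2 of the 4 lists, and keeping those whose centre was outside all protein-coding gene spans of the RefSeq annotation of GRCh38. Of 5091 merged ATF4 regions, 571 had a peak in at least 2 lists, and 349 of these lay between genes and 222 inside genes. The study mapped ATF4 and MYC on chromatin by ChIP-seq in cells of the human colon adenocarcinoma line DLD-1 infected with a retrovirus that expresses MycER, a MYC protein fused to a hormone-binding domain of the estrogen receptor and switched on by 4-hydroxytamoxifen. ATF4 was profiled in 2 libraries of control cells and in 2 libraries of cells with MYC activated for 8 hr, and MYC was profiled in 2 libraries of activated cells only. All groups carry MycER. The inducer was used at 500 nM, and cells without MycER were not treated with it, so that the effects of the inducer and of MYC activation cannot be told apart. An IgG library is listed in the series, and its peaks were not analysed here.

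ATF4 is a basic leucine zipper transcription factor whose translation rises when the initiation factor eIF2 is phosphorylated, as happens in amino acid shortage and endoplasmic reticulum stress. It binds DNA as a dimer, often with a C/EBP partner, at a composite site that joins a C/EBP half-site to a CRE half-site, and many of its known targets serve amino acid supply, tRNA charging and stress control. MYC binds the E-box CACGTG with its partner MAX and is known for driving ribosome and protein production. A region between genes can be a promoter just upstream of a start or a distal element, and the nearest gene is given as a position only, since a peak does not show which gene it acts on.

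The sequences closest to genes are shown first, because a composite site could be read there directly. Sequence was at hand only where a region overlapped the 250 bases before a gene's start in RefSeq (GRCh38.p14), which was the case for 14 of the 349 regions and for 15 such windows. The motif searched was TGATGNAAN on both strands. It was present in 11 of the 15 windows, and each of the 11 had a match inside the ATF4 region, against 1100 of 35116 RefSeq promoter windows of the same 250 bases (3.13%). The FGF21 and FUT1 windows overlap in 165 bases of the same region and share 1 match, read on opposite strands. The 11 windows therefore belong to 10 of the 14 regions, and 9 of the 10 held the exact letters TGATGCAA or their reverse complement. The matches inside regions lay 2 to 50 bp from the region's centre, and 1 further match, in the LOC102724467 window, lay outside its region. Each sequence is printed on the strand of the named gene, 5′ to 3′, for the part of the region that falls in the window, and capitals mark the motif letters without the last N. The stretches are chr15:40953221-40953393 for CHAC1, chr19:48755359-48755523 for FGF21, chr9:92293698-92293812 for IARS1, chr1:204411956-204412067 for PPP1R15B, chr17:42677090-42677244 for PLEKHH3, chr16:87779149-87779309 for LOC102724467, chr1:17441544-17441682 for LOC124903862 and chr12:131860941-131861003 for LOC124903058.
CHAC1: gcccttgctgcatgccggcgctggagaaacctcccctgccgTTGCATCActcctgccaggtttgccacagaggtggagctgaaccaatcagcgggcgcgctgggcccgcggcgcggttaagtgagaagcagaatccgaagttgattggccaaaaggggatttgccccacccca
FGF21: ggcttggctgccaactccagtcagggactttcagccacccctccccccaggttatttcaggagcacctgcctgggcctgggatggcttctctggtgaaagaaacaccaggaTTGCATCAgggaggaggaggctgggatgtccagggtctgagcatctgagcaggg
IARS1: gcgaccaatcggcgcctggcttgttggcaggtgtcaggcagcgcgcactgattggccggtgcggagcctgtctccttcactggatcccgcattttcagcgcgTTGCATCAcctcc
PPP1R15B: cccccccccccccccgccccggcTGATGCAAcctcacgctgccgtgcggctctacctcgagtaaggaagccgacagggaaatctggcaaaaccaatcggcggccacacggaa
PLEKHH3: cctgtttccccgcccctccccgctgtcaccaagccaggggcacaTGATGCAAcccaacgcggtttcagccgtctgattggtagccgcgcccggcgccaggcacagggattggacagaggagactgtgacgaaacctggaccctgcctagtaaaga
LOC102724467: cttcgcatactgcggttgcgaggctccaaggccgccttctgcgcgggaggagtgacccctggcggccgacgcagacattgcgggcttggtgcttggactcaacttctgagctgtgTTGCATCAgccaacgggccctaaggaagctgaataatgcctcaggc
LOC124903862: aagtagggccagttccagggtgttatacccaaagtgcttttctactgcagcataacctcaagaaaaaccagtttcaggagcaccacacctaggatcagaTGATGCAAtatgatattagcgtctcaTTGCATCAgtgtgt
LOC124903058: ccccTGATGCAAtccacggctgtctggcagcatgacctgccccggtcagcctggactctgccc
The capitals read TTGCATCA or TGATGCAA in all 8, and LOC124903862 carries one match in each orientation, 10 and 14 bp from the centre of its region. The match at IARS1 and the one at PLEKHH3 were each 2 bp from the centre.

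Another pair of regions held the ATF4 motif together with an E-box, at TBL1X (chrX:9463123-9463294), which encodes a subunit of a nuclear corepressor complex, and at ZNF460 (chr19:57279820-57279981), a zinc finger gene. In both, CACGTG is left in lower case, 11 and 36 bp from the region's centre.
TBL1X: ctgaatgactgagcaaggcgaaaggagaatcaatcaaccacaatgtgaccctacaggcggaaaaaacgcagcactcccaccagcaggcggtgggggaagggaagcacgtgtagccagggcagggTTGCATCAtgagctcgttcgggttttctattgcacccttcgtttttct
ZNF460: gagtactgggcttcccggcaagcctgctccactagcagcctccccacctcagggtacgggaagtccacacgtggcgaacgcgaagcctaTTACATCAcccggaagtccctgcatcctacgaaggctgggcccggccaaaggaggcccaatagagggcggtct
Both regions overlapped a MYC region found in both MYC libraries. The MYC tag counts there were 23.3 and 34.1 at TBL1X and 7.61 and 17.6 at ZNF460. CACGTG lay in 3 of the 15 windows and inside the ATF4 region in 2, against 6.34% of all promoter windows. The CRE palindrome TGACGTCA and the AP-1 site TGANTCA each lay in 1 of the 15 windows, outside the ATF4 region, against 1.65% and 6.57% of all windows. The windows of ISL2, PCCB, NCOA7 and PSAT1 held no TGATGNAAN, and those of ISL2 and PCCB cover only a small part of their region. PSAT1, the aminotransferase step of serine synthesis, is shown because its whole region fell in the window (chr9:78296889-78297094).
PSAT1: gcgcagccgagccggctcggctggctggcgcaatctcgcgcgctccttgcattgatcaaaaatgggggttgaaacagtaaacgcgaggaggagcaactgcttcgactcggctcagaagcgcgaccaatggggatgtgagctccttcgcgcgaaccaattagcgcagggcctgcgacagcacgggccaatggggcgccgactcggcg

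Tag counts are the authors' normalized values, scaled to a fixed number of tags per library, and the strongest peak of a region stands for it in each list. The libraries differed in depth, which was estimated from the steps between their low normalized tag counts. The estimates were 22.4 and 24.95 M tags for replicate 1 of control and activated cells, and 50.3 and 49.75 M for replicate 2. The lowest tag count listed ran from 2.81 to 4.46, so that a weak site could be listed in one library and missed in another. The lists held 916 and 1579 peaks in control cells and 1270 and 2231 in activated cells. Of the markers used to check the cell type, CDX2, a colon epithelial transcription factor, was the 1 of 9 colon markers with a MYC region of both libraries at its gene end. Of the other cell types, 1 of 5 neuronal markers (RBFOX3), and none of 7 blood cell, 6 fibroblast and 5 endothelial markers, had one.

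Of the 349 regions, 177 and 182 had a peak in the control libraries and 292 and 232 in the activated libraries. The activated libraries held more in both numbers, by 82.5 regions on average. The presence of a peak is what chose the regions, so this difference is a description and carries no test. A peak in 2 lists only was found for 218 regions, in 3 lists for 77 and in all 4 for 54. The most frequent pattern was a peak in both activated libraries and neither control library, with 81 regions, followed by both replicate 1 libraries alone, with 63 regions, and all 4 lists, with 54. A peak in both replicate 2 libraries alone was found for 35 regions.

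The 349 regions were split at a fold of 2 over the background, a value that the authors' lists give for each peak. The cut divides a continuous range, since the lower quartile of the highest fold was 2.05. In 81 regions (23.2%, exact 95% interval 18.9% to 28.0%, counting error only) no peak reached a fold of 2, and in 268 at least one did. Inside genes such low-fold regions made up 2 of 222 (0.901%). The 81 low-fold regions carried the highest tag counts of all, with a median of 17.0 normalized tags against 5.94 for the other 268, and lay at a median of 402464 bp from the nearest gene against 37555 bp. In the replicate 1 libraries they were about as many in both conditions, and in the replicate 2 libraries more were listed in control cells: 69 and 71 of the 81 had a peak in the replicate 1 libraries of control and activated cells, 29 and 11 in the replicate 2 libraries, and 49 were in both replicate 1 libraries alone. In 4 of the 81 the peaks were in both control libraries alone, and none had peaks in the activated libraries alone.

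**Figure D1:**
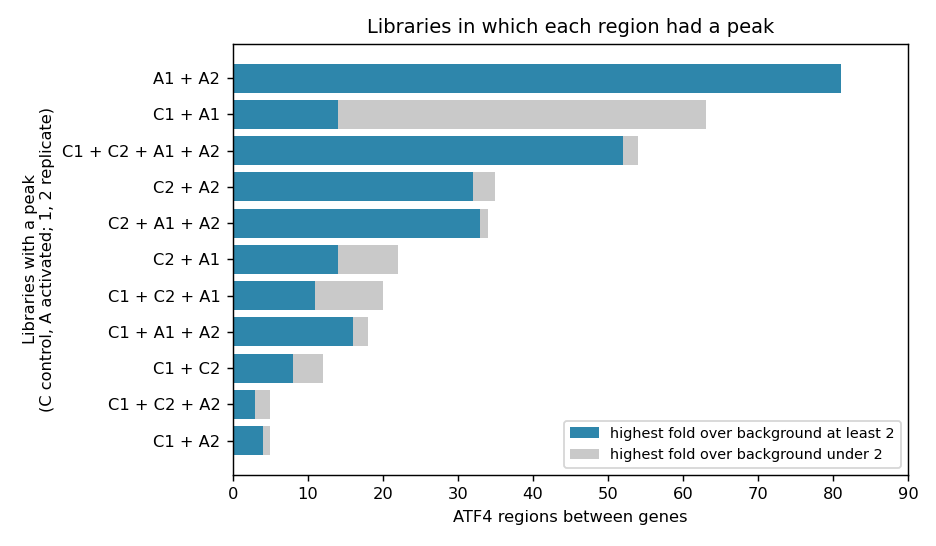
Number of ATF4 regions between genes (horizontal axis) by the set of ATF4 lists in which they had a peak (vertical axis), split by the highest fold over background of the region. The 49 low-fold regions of both replicate 1 lists stand out, and all 81 regions of both activated lists alone reached a fold of 2.

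The region with the highest mean tag count was on chromosome 16 (chr16:46390581-46390765, hg38), with 135.7 normalized tags in control replicate 1 and 116.6 in activated replicate 1 and no peak in either replicate 2 list. On chromosome 3 (chr3:93470495-93470679) the same libraries had 144.2 and 101.4, and on chromosome 1 (chr1:125183694-125183883) 109.4 and 93.8. All 3 stood higher in the control library, and each was also covered by a peak of MYC replicate 1, with 124.1, 116.9 and 97.4 tags. The low-fold regions crowded together: 57 of the 81 fell in 15 blocks of at least 2 regions spaced by at most 100000 bp. The largest blocks were on chromosome 16, with 8 regions at chr16:34574190-34595577 and 8 at chr16:46382184-46401573, and on chromosome 5, with 7 regions at chr5:49599547-49661584. The nearest gene was at least 177130 bp away from each of these 3 blocks. A MYC replicate 1 peak overlapped 39 of the 81 regions and a MYC replicate 2 peak overlapped 3. Why they were listed was not tested. The values below are given with these regions and, where they touch a result, without them. Regions just above the cut stay in, also where they lie among low-fold ones. An example is chr4:49118883-49119149, with a highest fold of 2.15, inside the low-fold block chr4:49109907-49154581.

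**Figure D2:**
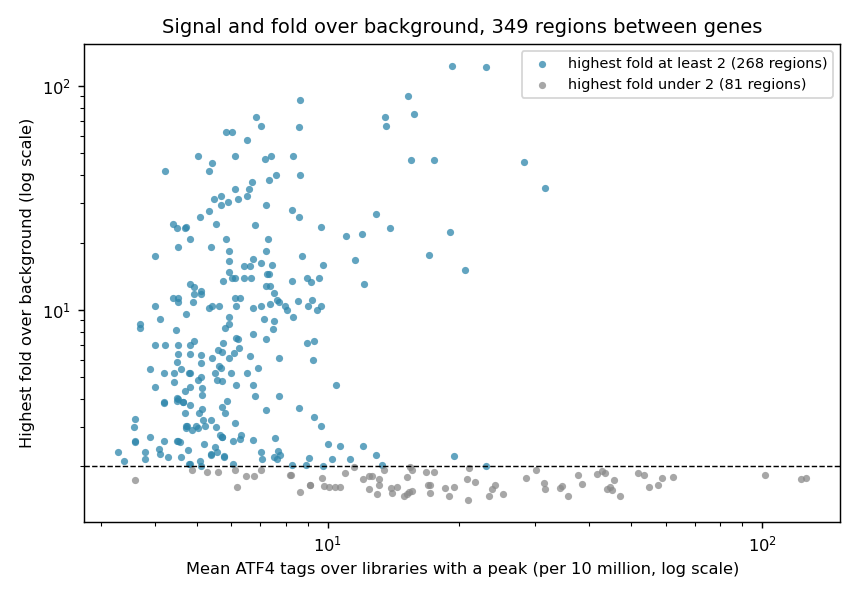
Mean normalized tag count (log axis) against the highest fold over background (log axis) for the regions between genes. The regions with the highest tag counts, up to 126.15, sit at folds under 2.

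Among the 4 libraries the median tag count of the regions between genes was 9.82 and 5.57 in control cells and 7.22 and 6.63 in activated cells, against 6.25, 4.87, 6.01 and 6.83 for regions inside genes. The regions between genes stood higher in 3 of the 4 libraries, by 1.32 on average, and the exact two-sided sign-flip permutation test gave p = 0.25, a test that 4 libraries cannot bring below 0.05. Without peaks under a fold of 2 the difference was -0.05 (p = 1 in the same exact test). The medians of the 268 other regions were 6.25, 4.97, 6.41 and 6.63.

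Regions near genes of the integrated stress response, the programme that ATF4 carries out, were among the stronger ones with a high fold, beside others such as those near TCP11L2 and KLHDC4. Of 21 stress response regulators, 7 were the gene nearest to one of the regions (8 regions in all), and 6 of the 7 lay within 100000 bp. The region near DDIT4, an inhibitor of mTORC1, lay 1008 bp before its start in the antisense gene DDIT4-AS1 (chr10:72272806-72273027) and had 26.8 and 20.9 normalized tags in control cells and 40.5 and 38.4 in activated cells. Both activated values were above both control values, and the limma change of 0.71 on the log2 scale had a Benjamini-Hochberg adjusted p of 0.0721. The region 66 bp before FGF21, a stress hormone of metabolism, had 22.3 and 14.5 in control cells and 42.5 and 33.6 in activated cells. The region 184 bp before CHAC1, an enzyme that degrades glutathione, had 14.3 and 10.3 in control cells and 28.5 and 24.3 in activated cells. FGF21 and CHAC1 both have the composite site printed above, and in both the activated libraries did not overlap the control libraries.

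The change after MYC activation was fitted with limma on log2(tag count + 1) over the 105 regions of any position with a peak in all 4 lists, 54 of them between genes. The labels do not say whether replicates were separate cultures, so the p-values measure only how these samples vary, and that variation may be technical. At an adjusted p below 0.05, 18 of the 54 regions rose, against 39 of all 105 (37.1%), and none fell (0% of 105). No region between genes fell at an unadjusted p below 0.05 either, and 27 rose at that level. The median change was 0.52 over the 54 regions and 0.54 over the 105, so the share and the size were near those of all fitted regions. In 40 of the 54 both activated libraries were above both control libraries, against 77 of 105 (73.3%), and in 1 both were below, against 3 of 105 (2.86%). By replicate number the median change was 0.34 for number 1 and 0.74 for number 2, and 42 regions were higher in both numbers.

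Without peaks under a fold of 2, 17 of 48 fitted regions between genes rose, against 36 of all 97, and none fell. The 18 calls rest on all 4 libraries and on the authors' scaling. With any one library left out no region passed, and with the replicate number as a block none passed (smallest adjusted p 0.115). With each library centred on its own median, none rose and 4 fell, and the median change was -0.13, so a region that rose was higher on the authors' scale.

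**Figure D3:**
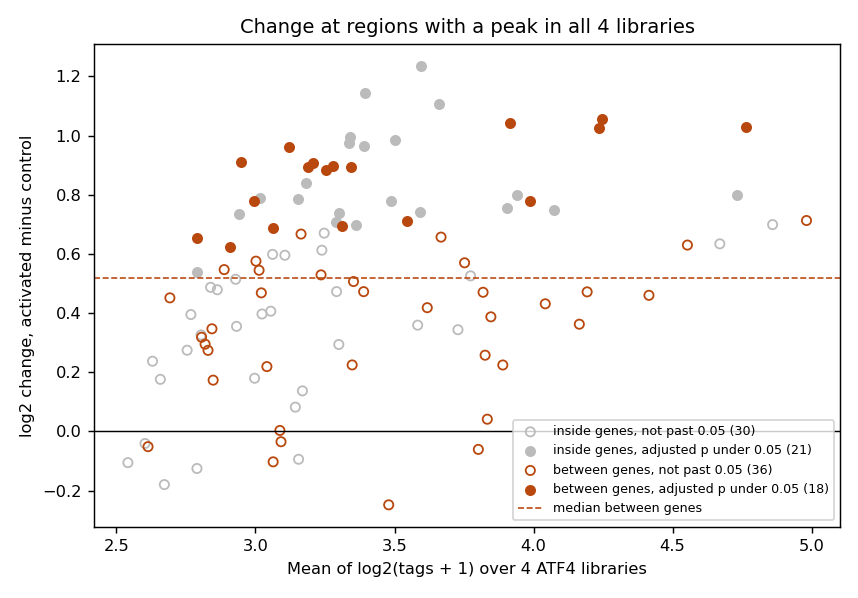
Change in log2(tag count + 1), activated minus control (vertical axis), against the mean level on the same scale (horizontal axis) for the 105 regions with a peak in all 4 lists, with the 54 between genes in orange, those inside genes in grey, and filled points past the limma threshold. The 18 between genes that passed lie between 0.62 and 1.05, while the median of all 54 was 0.52.

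The largest rise was at CHAC1, from 12.3 ± 2.83 to 26.4 ± 2.97 normalized tags (SD, n = 2 in each group), a log2 change of 1.05 ± 0.30 (SE, limma adjusted p = 0.00904). FGF21 rose from 18.4 ± 5.52 to 38.1 ± 6.29 (log2 change 1.03, limma adjusted p = 0.0114). The region with VEGFA, an angiogenic growth factor, as its nearest gene lay 140454 bp away in LINC01512 (chr6:43926829-43927054) and had 13.4 and 11.1 in control cells and 25.7 and 26.1 in activated cells (log2 change 1.03, limma adjusted p = 0.00914). The region near VLDLR, a lipoprotein receptor whose gene is a known stress response target, was 494 bp before its start in VLDLR-AS1 and had 6.25 and 5.17 in control cells and 10.8 and 12.1 in activated cells (log2 change 0.89, limma adjusted p = 0.0158). In total 4 of the 6 fitted regions of the stress response list passed the test and none fell, with a median change of 0.96, against 39 of all 105 fitted regions (37.1%) and a median of 0.54. None of the 4 passed with the replicate block or after centring, and the list was chosen with earlier results of these data known. The other 2 were DDIT4 and TRIB3.

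TRIB3, a pseudokinase induced by ATF4, had a region 4540 bp past its end with 13.8 and 11.7 tags in control cells and 14.0 and 16.1 in activated cells, where the groups did not overlap but differed little (log2 change 0.22, limma adjusted p = 0.512). A weaker TRIB3 region 8806 bp before the start had 4.91 in control replicate 1 and 6.01 and 7.03 in activated cells. SESN2, a leucine sensor that restrains mTORC1, had a region 9920 bp before its start with 5.17 in control replicate 2 and 6.01 and 11.1 in activated cells. Neither entered the fit, since each lacked a peak in 1 control list.

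Of the 18 that rose, 10 lay more than 10000 bp from the nearest gene, as did 32 of the 54 fitted regions. A region in the pseudogene CYP2G1P, 15176 bp before CYP2A7, had 12.9 and 6.96 in control cells and 20.8 and 20.5 in activated cells (log2 change 1.04, limma adjusted p = 0.00904). EREG, a ligand of the EGF receptor, had a region 5901 bp away with 12.9 and 9.54 against 21.6 and 18.1 (log2 change 0.78, limma adjusted p = 0.0315). ISL2, a homeodomain factor, had a region 314 bp before its start with 5.36 and 6.16 against 12.0 and 11.3 (log2 change 0.91, limma adjusted p = 0.0154). In each of these 3 regions the groups did not overlap. A region in EPCAM-DT, the divergent transcript of the epithelial adhesion gene EPCAM, 32108 bp from CALM2, had 5.8 and 7.95 against 10.0 and 13.5 (log2 change 0.69, limma adjusted p = 0.0496). It did not pass without peaks under a fold of 2 (limma adjusted p = 0.0550).

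The other 10 that passed had changes of 0.62 to 0.96. Their nearest genes were DYM, DAZL, MRPS18A, ARHGAP28, GNLY, GCNT3, CCR7, KRR1, KLF15 and OSR1. DAZL acts in germ cells, GNLY and CCR7 in immune cells and OSR1 in embryonic mesoderm, and no expression was measured here. The DAZL region, 35806 bp from the gene, went from 5.36 and 3.98 to 8.42 and 10.9 tags. It was the 1 of the 18 that overlapped a MYC region of both libraries, against 12 of the 54 fitted regions between genes. The smallest change of the 18 was at OSR1, 129815 bp away, with 5.36 and 4.77 against 8.02 and 8.64 (log2 change 0.62, limma adjusted p = 0.0432). With only peaks of at least 4-fold over background, the OSR1 region did not pass (limma adjusted p = 0.0503).

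**Figure D4:**
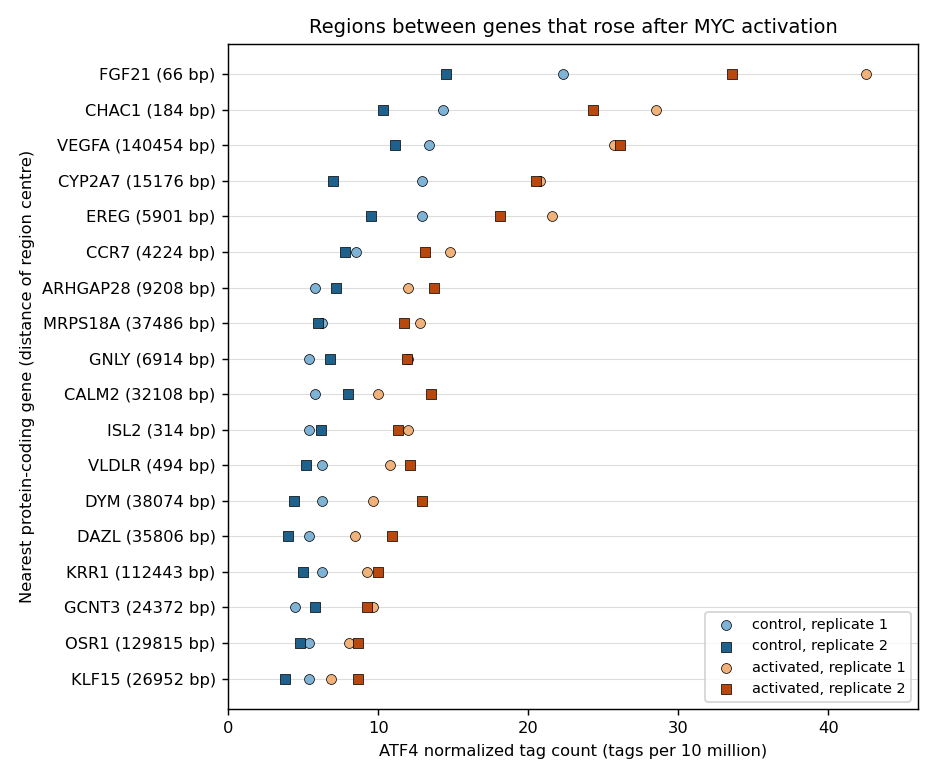
Normalized tag count in each of the 4 ATF4 libraries (points, horizontal axis) for the 18 regions between genes that passed the limma test, named by nearest gene. In every one both activated libraries are above both control libraries, from KLF15 (5.36 and 3.78 in control cells, 6.81 and 8.64 in activated cells) to FGF21 (22.3 and 14.5, 42.5 and 33.6).

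Several strong regions did not pass. HSPA5, the main chaperone of the endoplasmic reticulum and the only 1 of 12 unfolded protein response genes nearest to a region, had its site 2131 bp away in HSPA5-DT with 16.1 and 13.1 in control cells and 19.6 and 21.5 in activated cells (log2 change 0.47, limma adjusted p = 0.180). TCP11L2 had 21.4 and 14.9 against 28.1 and 28.3, 9275 bp before its start (log2 change 0.63, limma adjusted p = 0.0865). In both the activated libraries were above the control libraries. SREBF1, a regulator of lipid synthesis, had 10.7 and 7.75 against 14.8 and 15.1, 420 bp before its start (log2 change 0.66, limma adjusted p = 0.0601). EIF5, a translation initiation factor, had a region 17002 bp away with 13.8 and 15.9 against 18.4 and 20.3. The region holding the LOC102724467 sequence printed above, 13209 bp from KLHDC4, had 17.9 and 16.5 against 20.8 and 27.7 (log2 change 0.46, limma adjusted p = 0.206). The 5 of the 54 with the lowest fold over background, of which LOC124905368 had 13.8, 12.7, 12.8 and 12.5 tags, had changes of -0.25 to 0.26. Of the 7 fitted regions under a fold of 3 none passed.

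Amino acid supply, the best known output of ATF4, was represented by transporters, metabolic enzymes and a tRNA synthetase. Of 14 amino acid transporters, 3 were nearest to a region. SLC7A11, the cystine importer, had a region 73 bp from its gene with 5.36 and 5.77 in control cells and 6.41 and 11.9 in activated cells (log2 change 0.58, limma adjusted p = 0.0728). SLC7A5, the large neutral amino acid transporter, had a peak only in activated cells, with 4.81 and 6.83, 23063 bp past its end. SLC1A4, a transporter of small neutral amino acids, likewise had 8.02 and 9.85 in activated cells, but 128950 bp away in LINC01800. Of 16 genes of amino acid and one-carbon metabolism, PSAT1 and GPT2, an alanine aminotransferase, were nearest to a region. PSAT1 had 6.41 and 6.63 in activated cells, 134 bp before its start, and GPT2 had 4.41 and 7.23, 431 bp from its gene, and neither had a control peak. Of 13 aminoacyl-tRNA synthetases only IARS1 was nearest to a region, 8 bp before its start, with 4.77 in control replicate 2 and 8.82 and 11.3 in activated cells. NARS1, EPRS1, SLC38A1 and CEBPB missed the rule narrowly, since their region centres lay 38, 191, 216 and 287 bp inside the gene, and TRERF1 lay 21 bp inside, with 5.8, 4.37, 5.61 and 9.85 tags.

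None of 17 AP-1 and related bZIP genes and none of 16 mTORC1, autophagy and lysosome genes were nearest to a region. Of 22 Wnt target and colon epithelial genes, 3 were. KLF4, a transcription factor of differentiating epithelium, had a region 260200 bp before its start with 14.7 and 8.15 in control cells and 14.4 and 16.9 in activated cells, where the groups overlapped, and another 559414 bp away with 4.17 in control replicate 2 and 8.04 in activated replicate 2. KLF5, its relative in proliferating crypt cells, had 8.82 and 5.63 in activated cells only, 147224 bp past its end. AXIN2, a feedback inhibitor of Wnt signalling, had 6.81 and 4.62 in activated cells only, 70305 bp away.

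Peaks in both activated libraries and neither control library were found in 81 of 349 regions (23.2%), against 152 of all 571 regions (26.6%) and 71 of 222 inside genes (32.0%). Without the low-fold regions the share between genes was 30.2% (81 of 268). The strongest was 9128 bp from MMP17, a matrix metalloproteinase, and upstream of the start of LOC124903058, with 8.82 and 15.1 tags. Its part within the LOC124903058 window is printed above. SMOX, the spermine oxidase, had 9.62 and 11.3 at 39970 bp, and DUSP28 had 9.62 and 8.84 at 780 bp past its end. Near genes, RACK1, a ribosomal scaffold protein, had 7.22 and 6.23 at 674 bp before its start, and TAF15, an RNA-binding protein, had 7.22 and 6.03 at 690 bp. An absent peak is not an absent signal: in 14 of the 81 the activated replicate 1 value was below 4.46, the lowest value listed in control replicate 1. Peaks in both control libraries and neither activated library were found in 12 regions (3.44%), against 17 of 571 (2.98%) and 5 of 222 inside genes (2.25%). Only STX6, a syntaxin, was close to a gene among the 12, with 5.36 and 4.37 tags at 699 bp before its start, and 4 of the 12 were low-fold regions.

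Regions lay both beside genes and far from any gene. By distance, 22 of the 349 lay within 1000 bp of a gene (6.30%), 62 at up to 10000 bp (17.8%), 101 at up to 100000 bp (28.9%) and 164 farther away (47.0%). The median distance was 86017 bp. Among the 268 regions that reached a fold of 2, a peak in all 4 lists was found for 36.4% of those within 1000 bp, 23.7% and 21.2% in the middle classes and 11.8% of those beyond 100000 bp. Regions listed in activated cells alone did not follow that order, with 22.7%, 39.0%, 41.2% and 17.6%. Of the 84 regions within 10000 bp, 42 lay before the start of the gene and 22 past its end, and the strand of 20 genes was not given in the table used. Non-coding genes covered 82 of the 349 regions, 59 of them long non-coding RNA genes and 20 pseudogenes, and 10 regions lay in divergent transcripts such as HSPA5-DT and EPCAM-DT.

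**Figure D5:**
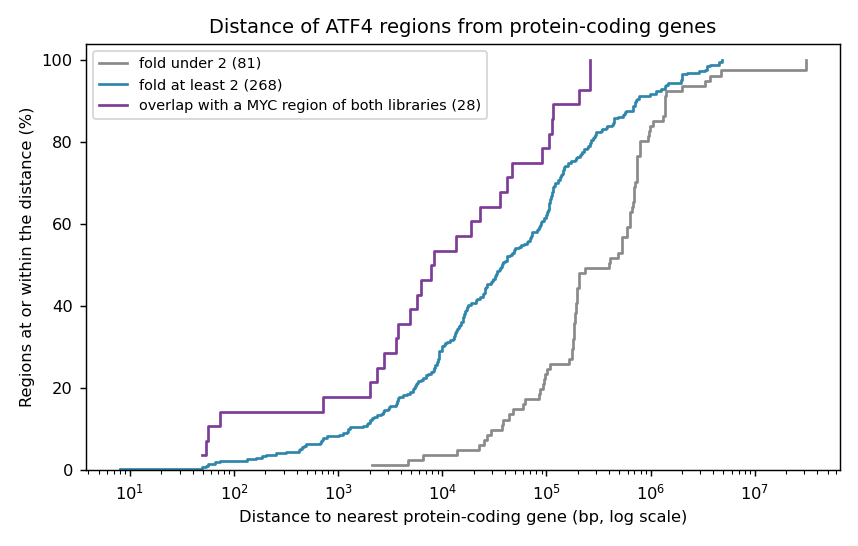
Cumulative share of regions (vertical axis, %) at or within a distance from the nearest protein-coding gene (horizontal axis, bp, log scale), as lines for the 268 regions that reached a fold of 2, the 81 that did not, and the 28 over a MYC region of both libraries. The line of the 268 crosses its median at 37555 bp and that of the 81 at 402464 bp.

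MYC regions present in both MYC libraries, 6313 in all, overlapped 28 of the 349 regions (8.02%, exact 95% interval 5.40% to 11.4%), against 71 of 571 (12.4%) and 43 of 222 inside genes (19.4%, 14.4% to 25.2%). Regions are not replicates, so the difference was not tested. Among the 268 regions at a fold of 2 or more the share was 10.1%, against 19.1% inside genes. By single library, MYC replicate 1 overlapped 75 regions and MYC replicate 2 overlapped 85, but replicate 1 took 39 of its 75 from the low-fold regions. By distance the overlap was 5 of 22 within 1000 bp (22.7%), then 10 of 62 (16.1%), 7 of 101 (6.93%) and 6 of 164 (3.66%). It was 22.2% among regions in all 4 lists (12 of 54), 9.88% among those of activated cells alone (8 of 81) and 0 of 12 among those of control cells alone, where an exact 95% interval reaches 26.5%.

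Shared regions included several of the stronger ones. NRSN2, a neuronal membrane protein gene next to TRIB3, had ATF4 counts of 14.3, 9.34, 15.2 and 15.7 (both control libraries first) and MYC counts of 15.2 and 24.9, 7738 bp away. The KLF4 region at 260200 bp had MYC counts of 6.65 and 20.4, and SLC7A11 had 9.03 and 14.2. STK40, a serine/threonine kinase gene, had ATF4 counts of 16.5, 10.5, 17.2 and 19.1 and a MYC count of 20.4 in replicate 2, with the replicate 1 peak of the same MYC region beside it. A merged MYC region can reach a member through 1 library's peak, and the reverse also occurs: at IARS1 both MYC libraries had a peak, of 9.51 and 24.9, but these did not overlap each other, so IARS1 is not among the 28. Among regions of activated cells alone, SLC45A1, a sugar transporter gene, had ATF4 counts of 6.41 and 11.5 and MYC counts of 9.51 and 22.4 at 105954 bp. GRB10, an adaptor that dampens insulin signalling, had 4.81 and 5.83 for ATF4 and 7.13 and 9.78 for MYC at 2018 bp before its start, and SLC7A5 had MYC counts of 5.23 and 9.38. MYC was not mapped in control cells here, so whether MYC was at these sites before activation was not analysed.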

How the data were processed

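Each of the 6 ATF4 and MYC libraries has its own deposited peak list. The submitters' processing notes name Bowtie 0.12.9, HOMER and hg38, with no settings. The authors scaled the tag count of each peak, the signal used here, to 10 M tags per library, per the file headers. The deposited lists also hold, from the authors' peak caller, the tag counts per peak, fold ratios over a background library that is not named, a score, a fraction of tags on the expected side of the centre, and p-values. Of these only the fold over background entered the results. The depths of 21.05 to 50.3 M tags are estimates made here from the listed peak values.

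Here, overlapping peaks (1 bp) were merged and regions placed against RefSeq gene spans of GRCh38. limma 3.58.1 in R 4.3.3, with a trend, was fitted on log2(tags + 1) for the 105 regions in all 4 lists and adjusted over all of them by the Benjamini-Hochberg method; single values were compared by exact permutation. The code of the fit was checked on simulated data in which only a minority of regions changed. Most fitted regions were higher here, so that check does not bear on the calls. Named regions were those past the threshold, the strongest, those within 1000 bp of a gene, those overlapping MYC, and those nearest to a listed gene. Members and gene lists were chosen with earlier results of these data known. Alternatives changed the pseudocount, filters, centring, block and libraries. The IgG library was not analysed here.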

Additional observations from a re-analysis of the deposited data

How the results depend on the processing

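The number of regions between genes was 162 when peaks had to reach 4-fold over background, 131 with a peak in at least 3 lists, 225 when they had to reach 2-fold (an alternative chosen after seeing the data), and 183 to 280 with 1 ATF4 library left out. Regions of activated cells alone numbered 0 to 115 and those of control cells alone 0 to 32 with 1 library left out; the 0 follows from the rule, since 1 remaining library of a group cannot make 2 lists. Control cells alone gave 0 regions at 4-fold and 2 at 2-fold. The share over a MYC region was 13.6% at 4-fold, 11.6% at 2-fold and 7.49% to 24.4% with 1 library left out, the highest being 21.5% and 24.4% with a single MYC list. The tag difference between regions between and inside genes was -0.05 at 2-fold. With the replicate block 0 regions rose. The replicate numbers do not pair the samples by label, and deviations of same-numbered samples correlated at 0.098 over 105 regions. Centring each library gave 0 higher, 4 lower and a median change of -0.13, with OSR1 at -0.023. With 1 library left out 0 rose (0 to 0), where the lone sample was assumed to vary like the other group. Why these values moved was not tested. Of 89 alternative values of the main results, 64 stayed within the limits set, 23 moved and 2 changed sign. For the tag difference and for the number of regions per library the limit was the sign alone, so size was not judged. The tag difference of 1.32 was 0.0375 at 4-fold. The difference of 82.5 regions per library was 14 without activated replicate 1. Sites weaker than the lowest listed count of a library, 4.46 in control replicate 1, could not be seen there.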

Other observations

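Some regions lay close together. Among those with a fold of at least 2, 17 of 227 loci held 2 or more regions spaced by at most 100000 bp, 58 regions in all. The locus of TRIB3 and NRSN2 held 3 regions on chromosome 20 between 362493 and 402206 (hg38), 2 of them in all 4 lists. At KLHDC4 and SLC7A5 on chromosome 16, a region in all 4 lists (17.9, 16.5, 20.8 and 27.7 normalized tags) stood next to one listed in activated cells alone (4.81 and 6.83). On chromosome 1, the region before PPP1R15B, a phosphatase subunit that reverses eIF2 phosphorylation, had 6.25 in control replicate 1 and 4.41 and 7.03 in activated cells. The region 9249 bp before MDM4, an inhibitor of p53, had 7.59 and 7.55 in control cells and 9.22 and 13.5 in activated cells. The 2 regions nearest to SLC45A1 were both listed in activated cells alone. The other loci had nearest genes such as NBPF1, TPTE and OR11H1. Their regions had highest folds of 2 to 8.1, against 5.21 to 65.95 in the loci described here. Some of them, as at CWH43 and USP9Y, held regions lying inside blocks of low-fold regions.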
